A study of Mus musculus with 16 samples.

Results

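*Foxb1* neurons are the neurons in which *Foxb1*, a forkhead transcription factor, was found with at least 2 unique molecular identifiers (UMIs, the tags that count captured transcripts in Drop-seq) and in which the GABA genes *Gad1*, *Gad2* and *Slc32a1* together had fewer than 2. They were taken from all 16 libraries, among barcodes with over 200 and under 4000 genes and under 15% of UMIs on mitochondrial genes that held at least 3 of the 8 neuronal genes *Snap25*, *Syt1*, *Stmn2*, *Snhg11*, *Meg3*, *Celf4*, *Map1b* and *Ndrg4*. The members were thus selected on their measured *Foxb1*, GABA and neuronal UMIs, and these genes are not findings. The rule found 122 cells among 9679 gated neurons and 55675 cells kept. Drop-seq was run on the hypothalamus and preoptic area of mice labelled female, 1 library per mouse, on a mixed CD-1;129P2 background. The animals were 8 to 10 weeks old when treatment began and received 28 daily subcutaneous injections of tamoxifen at 0.1 mg/kg or of the vehicle, corn oil with ethanol. They were collected over 4 days, 2 hours after the last injection. All mice carried floxed *Esr1*, the gene of estrogen receptor alpha. The Esr1cKO mice also carried Nkx2-1Cre, a transgene that acts in cells with a history of *Nkx2-1*, and their littermates without Cre are called wild-type (WT) here. There were 3 WT oil, 5 WT tamoxifen, 4 Esr1cKO oil and 4 Esr1cKO tamoxifen libraries.

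The mammillary bodies lie at the caudal end of the hypothalamus. Their principal neurons use glutamate, receive input from the hippocampal formation through the fornix and project to the anterior thalamus and the tegmentum. *Foxb1* marks the developing and adult mammillary region, and *Lhx1*, *Sim1* and *Nkx2-1* are among the factors known for its formation.

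Several properties of the libraries bear on these cells. Total UMIs per library ranged from 2634253 to 8038158. The *Foxb1* neurons held 434552 UMIs in all, with a median of 3010 UMIs per cell, above the 1380 of the 6499 non-GABA neurons without a *Foxb1* UMI and the 2423 of the 2893 GABA neurons without one. WT oil replicate 3 and Esr1cKO tamoxifen replicate 3 stood apart from the other 14 libraries on the first principal component, at 99.1 and 96.0 where the others lay between −39.0 and −2.64. Esr1cKO oil replicate 3, labelled female, held 3 *Xist* UMIs and 88 UMIs of the Y-linked *Ddx3y*. Libraries 13 to 16 shared 303 to 359 cell barcodes per pair, and the expression profiles under the same barcode correlated at a median r of 0.587 to 0.637, against 0.162 to 0.169 between a barcode and the next one in the list. Among the *Foxb1* neurons, 9 of 122 had a barcode that also occurred in another library, and the 122 cells carried 118 distinct barcodes. A single barcode was a *Foxb1* neuron in all 4 of libraries 13 to 16, with 7 to 10 *Foxb1* UMIs in each. Results are therefore also given without shared barcodes.

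The label of mammillary neurons was checked on the markers *Cpne9* (copine 9, a calcium-dependent membrane-binding protein), *Rprm* (reprimo, a cell cycle regulator) and *Ctxn3* (cortexin 3). *Rprm* was found in 88 of the 122 cells (72.1%, exact 95% binomial interval 63.3 to 79.9%), against 8.14% of *Foxb1*-free non-GABA neurons. *Cpne9* was found in 85 (69.7%, 60.7 to 77.7%), against 4.52%. *Ctxn3* was found in 31 (25.4%, 18.0 to 34.1%), against 0.877%. These intervals cover counting error only. With each cell thinned to 1000 UMIs, which left out 4 *Foxb1* and 2408 comparison cells, *Cpne9* was found in 33.9% of *Foxb1* neurons and 3.18% of comparison cells. The 3 markers were chosen with earlier results of these data known, so their values are a description. Among 8 genes listed for premammillary neurons, *Cck* was found after thinning in 25.4% of *Foxb1* neurons against 8.48% of comparison cells. *Adcyap1* (27.1% against 3.79%) and *Nos1* (7.63% against 3.62%) were also more frequent. *Dlk1* (5.93% against 17.2%), *Tac1* (1.69% against 6.14%), *Foxp2*, *Irs4* and *Slc6a3* were less frequent. Whether the members include premammillary neurons was not tested.

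The threshold of 2 *Foxb1* UMIs cut through a gradient. Of the members, 54 had 2 *Foxb1* UMIs, 31 had 3 and 37 had 4 or more, up to 15. Just outside the rule, 146 non-GABA neurons had 1 *Foxb1* UMI. *Rprm* stood at 68.4 CPM (UMIs of a gene per 1e6 UMIs) in neurons with no *Foxb1* UMI, at 431 with 1, at 838 with 2, at 965 with 3 and at 913 with 4 or more. *Cpne9* stood at 46.9, 317, 434, 581 and 560 CPM over the same steps. *Lhx1* rose along them from 23.3 to 161, 245 and 337 and then stood at 286 CPM. Cells with 1 *Foxb1* UMI thus lay between the *Foxb1*-free neurons and the members in these 3 genes. They also held more UMIs of 10 astrocyte markers, at 0.433% of their UMIs against 0.136% in *Foxb1*-free neurons. The share was 0.226% in members with 2 *Foxb1* UMIs (0.0438% without 2 cells that held 147 and 157 such UMIs), 0.0478% in those with 3 and 0.0262% in those with 4 or more. The part of this RNA in the levels was not tested.

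**Figure D1:**
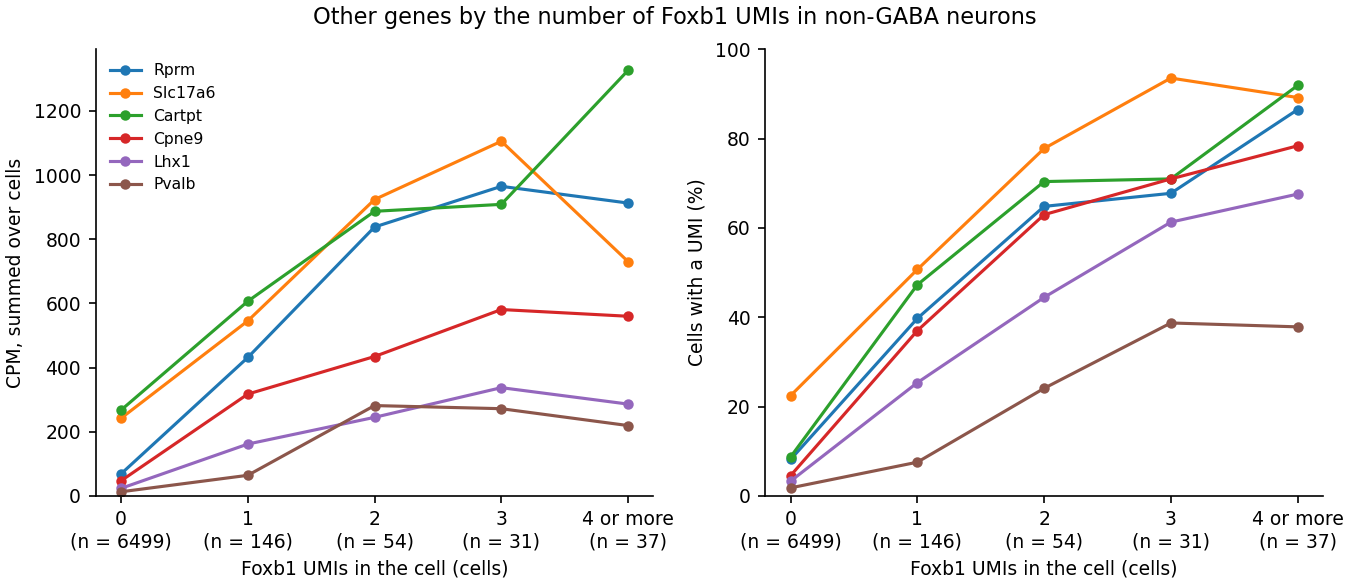
CPM summed over cells (left) and percent of cells with at least 1 UMI (right) for 6 genes in non-GABA neurons, by the number of *Foxb1* UMIs in the cell. The step with 1 *Foxb1* UMI lies between the steps with 0 and 2 for all 6 genes, and *Slc17a6* is lower at 4 or more UMIs (730 CPM) than at 3 (1105 CPM).

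*Foxb1* neurons were unevenly spread over the libraries. Their share of gated neurons was 5.13%, 2.94% and 0.789% in the 3 WT oil libraries and 2.54%, 0.343%, 0.638%, 0.498% and 0.547% in the 5 WT tamoxifen libraries. It was 0.982%, 2.19%, 0.483% and 1.05% in the Esr1cKO oil libraries and 1.85%, 0%, 0.367% and 1.03% in the Esr1cKO tamoxifen libraries. The 0 of 248 neurons in Esr1cKO tamoxifen replicate 2 allows a share of up to 1.48% (exact 95% binomial limit). WT tamoxifen libraries had a mean share of 0.914% ± 0.918 (SD, n = 5) and WT oil libraries of 2.95% ± 2.17 (SD, n = 3), with overlapping ranges (exact two-sided permutation test, p = 0.0357, Benjamini-Hochberg adjusted p = 0.143 over 4 comparisons). The difference did not pass the adjusted threshold, and the unadjusted p was 0.0536 with non-GABA neurons as the denominator, 0.286 with all kept cells and 0.238 without WT oil replicate 1 (exact permutation tests). With 5 and 3 libraries the smallest unadjusted p this permutation test allows is 0.0179. A single difference among the 4 comparisons could therefore not pass the adjusted threshold here.

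The other 3 comparisons of the share were within the spread between mice. Esr1cKO tamoxifen (0.812% ± 0.814, SD, n = 4) and Esr1cKO oil (1.18% ± 0.721, SD, n = 4) gave an adjusted p of 0.648 in the exact permutation test. The adjusted p was 0.400 for Esr1cKO against WT under oil and 0.849 under tamoxifen (exact permutation tests). The smallest unadjusted p these tests allow is 0.0286 for each comparison with Esr1cKO oil and 0.00794 for the genotypes under tamoxifen. By successive fours of library numbers, libraries 1 to 4 held 61 of the 122 cells (2.28% of their neurons), libraries 5 to 8 held 28 (1.54%), libraries 9 to 12 held 15 (0.540%) and libraries 13 to 16 held 18 (0.747%). Each of the first 3 fours held 1 library of every group, and the mean difference of WT tamoxifen from WT oil within these fours was −1.78 percentage points (exact permutation within fours, p = 0.25, the smallest this design allows). How much mammillary tissue each sample held was not measured, so fewer *Foxb1* cells in the tissue and less of this tissue in the sample cannot be told apart.

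**Figure D2:**
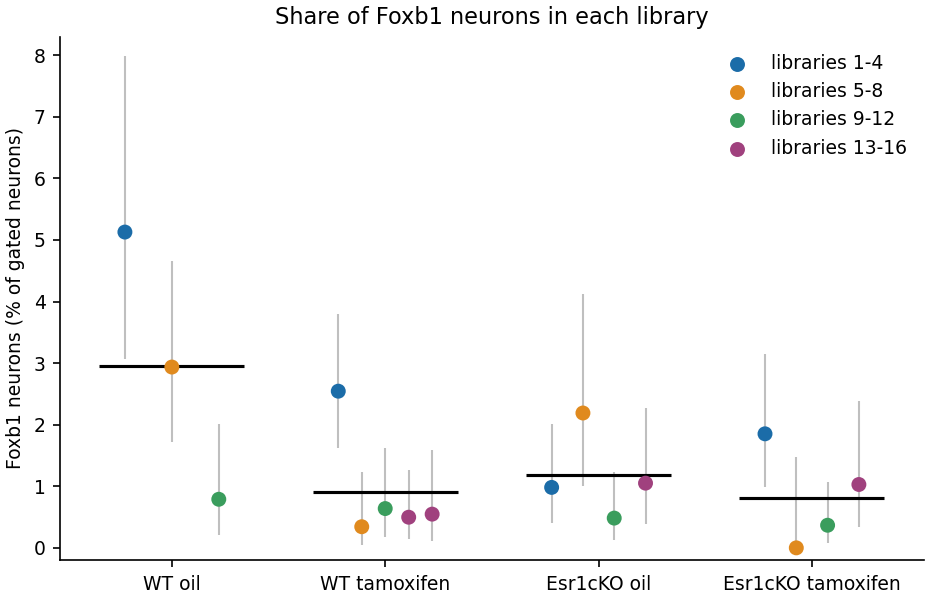
Percent of gated neurons that were *Foxb1* neurons in each of the 16 libraries, by group. Points are libraries coloured by successive fours of library numbers, grey lines exact 95% binomial intervals and black lines group means. WT oil replicate 1 (5.13%) and replicate 2 (2.94%) are the highest points, and libraries 9 to 12 lie below 0.8% in every group.

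To ask what else these cells expressed, UMIs were summed per library over *Foxb1* neurons and over the *Foxb1*-free non-GABA neurons of the same mouse. The 8 libraries with at least 5 *Foxb1* neurons were compared with edgeR's quasi-likelihood test and the mouse as a block. Of 9724 genes tested outside the rule, 419 were higher in *Foxb1* neurons (4.31%) and 1072 lower (11%), 15.3% in all. The median log2 fold change of all genes tested was −0.18, and −0.05 with library size alone as the scaling. Genes of the rule took part in the fit and its adjustment (9759 genes in all) but were left out of these counts, since they are not findings. Some genes with 0 or 1 UMI in *Foxb1* neurons passed the filter on low counts through the larger comparison sums. For these only a lower level could be called. Counts of lower genes and medians of lists that hold such genes are therefore a description. Without barcodes shared between libraries the counts were 368 and 839, of which 345 and 802 were also in the first counts. With each cell thinned to 1000 UMIs, so that both kinds had the same depth per cell but fewer UMIs in all, 118 genes were higher and 209 lower (edgeR). Of the 86 genes named for this comparison, 14 lost their call after thinning, where 4716 genes were tested. Sparse named genes, such as *Uncx*, *Otp* and *Scn4b*, were not tested there, so they neither kept nor lost a call.

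Among the genes with the highest folds were *Pvalb* and the markers of the label. *Pvalb* (parvalbumin, a fast calcium buffer, chr15:78191114-78206400 in GRCm38) stood at 0 CPM in the lowest, 307 in the median and 485 in the highest library of *Foxb1* neurons, against 2.09, 5.25 and 26.4 CPM in *Foxb1*-free neurons. The ranges overlapped through Esr1cKO oil replicate 4 alone, whose 6 *Foxb1* neurons held no *Pvalb* UMI (log2 fold change 4.92 ± 0.33 SE, edgeR adjusted p = 2.55e-47, higher in 7 of 8 libraries). *Cpne9* (chr6:113282307-113305627) stood between 150 and 831 CPM with a median of 564, against 22.2 to 44.6 CPM (log2 fold change 3.82 ± 0.22 SE). *Rprm* (chr2:54084093-54085552) stood between 507 and 1607 CPM with a median of 818, against 20.3 to 99.5 CPM (3.46 ± 0.19 SE). Neither overlapped between the 2 kinds of neuron in any of the 8 libraries. Over all genes tested, 3.96% did not overlap. *Ctxn3* (3.84 ± 0.47 SE) was higher in 6 of 8 libraries and was listed at 0 in the *Foxb1* neurons of the other 2.

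Other genes among the 12 with the highest folds and at least 50 UMIs in *Foxb1* neurons were *Hopx*, an atypical homeodomain protein (log2 fold change 3.11 ± 0.24 SE), the transcription factors *Onecut2* (3.00 ± 0.33) and *Lhx1* (2.89 ± 0.29), the orphan G protein-coupled receptor *Gpr83* (2.77 ± 0.33) and the neurofilament subunits *Nefm* (2.65 ± 0.18) and *Nefh* (2.56 ± 0.25). Neurofilaments are the intermediate filaments of long, thick axons. Each of these 6 was higher in 8 of 8 libraries, and the levels of none overlapped between the kinds.

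**Figure D3:**
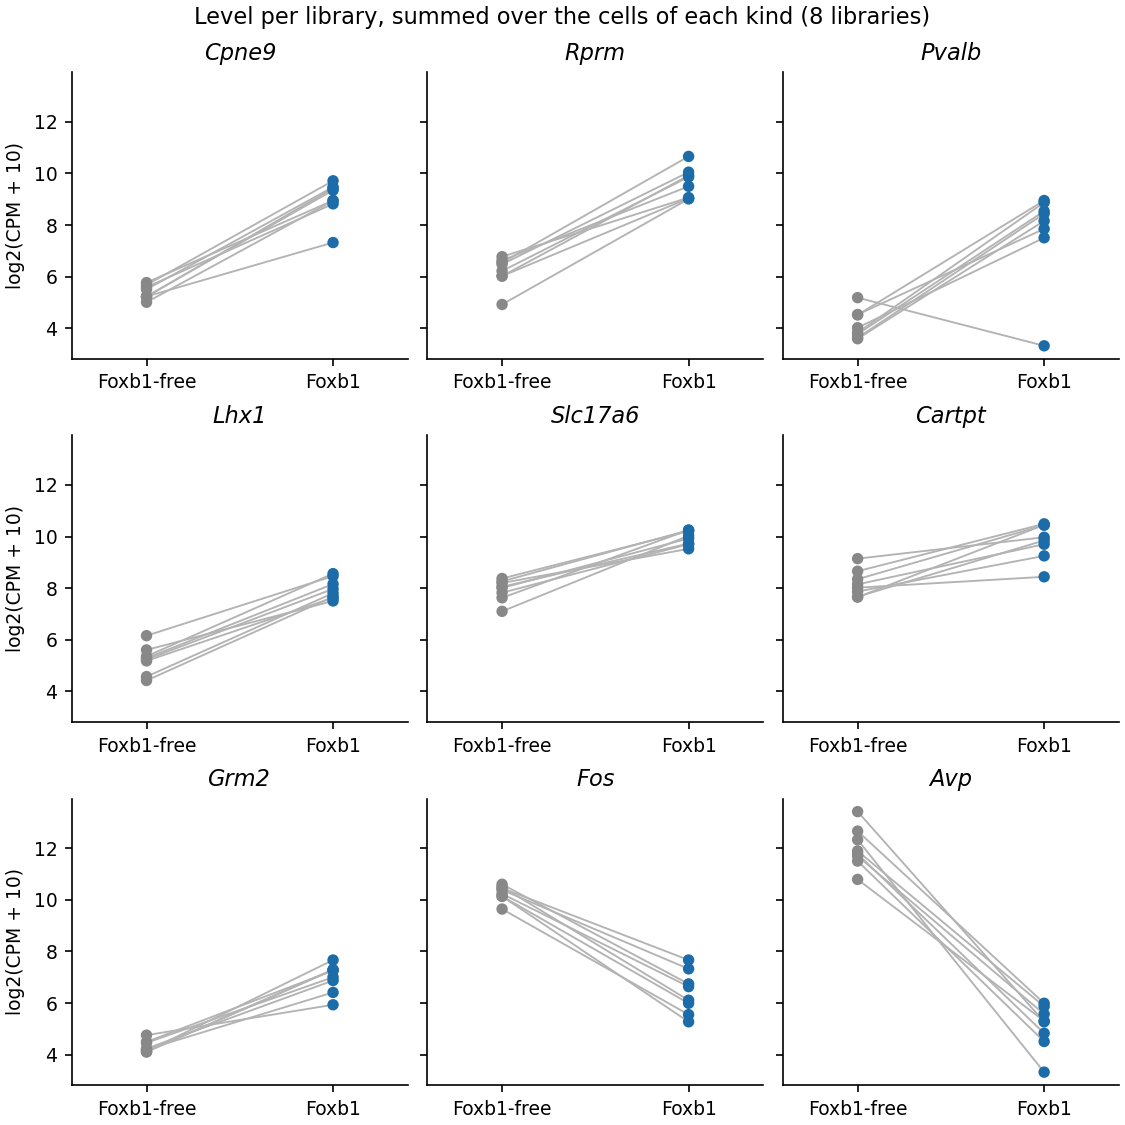
Level of 9 genes as log2(CPM + 10) in *Foxb1*-free non-GABA neurons (grey) and *Foxb1* neurons (blue) of the same library, joined by lines, in the 8 libraries with at least 5 *Foxb1* neurons. *Pvalb* falls in 1 library, Esr1cKO oil replicate 4, and rises in the other 7, while *Fos* and *Avp* are lower in *Foxb1* neurons of all 8.

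A pair of non-coding genes lay beside transcription factors of these cells. *B230323A14Rik* (log2 fold change 3.99 ± 0.23 SE, chr9:69758740-69830845, plus strand) overlaps *Foxb1* (chr9:69757710-69760940, minus strand) by 2201 bases in GENCODE. In RefSeq 205 bases lie between them. Whether the counting used strand is not given in the sources used here, so reads in the GENCODE overlap cannot be told apart from those of *Foxb1*. The value of *B230323A14Rik* is therefore not taken as evidence beyond the rule. *1500016L03Rik*, named Lhx1os in GENCODE, stood between 300 and 727 CPM in *Foxb1* neurons and between 14.3 and 85.0 CPM in *Foxb1*-free neurons, without overlap (log2 fold change 3.48 ± 0.22 SE, edgeR adjusted p = 2.16e-51). It lies at chr11:84525660-84535831 on the plus strand and does not overlap *Lhx1*, which lies at chr11:84518284-84525535 on the minus strand. *Lhx1* stood between 172 and 369 CPM, against 11.5 to 61.6 CPM. Both genes thus were higher in the same cells and start back to back. The 125 bases between their RefSeq starts (GRCm38) are shown because both genes of this divergent pair were among the 12 highest. They are printed on the minus strand, with CpG dinucleotides in capitals, and hold 12 CpG at a GC content of 66.4%. The first base printed (84525659) thus lies beside *1500016L03Rik* and the last (84525535) beside *Lhx1*. The label names the pair and not the direction.
Lhx1 to 1500016L03Rik, chr11:84525535-84525659: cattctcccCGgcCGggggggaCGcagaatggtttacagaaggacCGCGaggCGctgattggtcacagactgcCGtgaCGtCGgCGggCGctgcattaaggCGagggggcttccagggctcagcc

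Among 14 transcription factors listed for the mammillary region, 7 passed the filter on low counts, of which 4 were higher and 2 lower in *Foxb1* neurons, with a list median log2 fold change of 1.28. Without WT oil replicate 1 the number higher was 2. Beside *Lhx1*, *Nkx2-1* stood between 48.5 and 225 CPM against 27.7 to 42.5 CPM (1.51 ± 0.36 SE, adjusted p = 0.000523), but was not called with at least 10 cells per library (1.06, adjusted p = 0.122, edgeR) or after thinning (1.10, 0.465). *Sim1* (1.28 ± 0.38, adjusted p = 0.00823) was higher in 8 of 8 libraries and *Uncx* (1.64 ± 0.58, adjusted p = 0.0355) in 5 of 8. *Sim1* did not pass the test without WT oil replicate 1 (1.12, adjusted p = 0.0732, edgeR), among cells with an *Slc17a6* UMI (0.91, 0.151) or after thinning (1.61 on 11 UMIs, 0.121). *Uncx* lost its call in 8 of the alternatives, with adjusted p values from 0.0631 without cells with RNA of another class to 0.165 without WT oil replicate 2 (edgeR), among them 0.0683 without shared barcodes, 0.0961 with at least 10 cells per library and 0.143 at a mitochondrial share under 5%. *Otp*, a factor of neuroendocrine neurons, and *Lef1*, a mediator of Wnt signalling, were lower, each with 1 UMI in *Foxb1* neurons where 10.5 and 13.1 were expected from the comparison level. *Otp* was not called by DESeq2 (adjusted p = 0.0816), at a mitochondrial share under 5% (0.0635, edgeR) or without WT tamoxifen replicate 1 (0.0662), nor *Lef1* with at least 3 *Foxb1* UMIs (0.0778).

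Of 12 factors listed for the neighbouring supramammillary and subthalamic regions, 3 passed the filter, of which 1 was higher and 2 were lower. The lower genes were *Foxp2* (log2 fold change −1.11 ± 0.41 SE, adjusted p = 0.0444) and *Nr4a2* (1 UMI against 11.3 expected). *Foxp2* lost its call in 16 of the alternatives, among them library size alone as scaling (adjusted p = 0.103, edgeR). Of 25 factors of other hypothalamic regions, 9 passed the filter, none was higher and 6 were lower. Among these, *Six6*, *Isl1* and *Zic1* passed through the comparison sums, so the counts and median of this list are a description. The list median was −3.88, and −1.90 with the genes without a UMI in *Foxb1* neurons set to a floor of 3 UMIs. *Six6*, a factor of suprachiasmatic and arcuate regions, had 0 UMIs where 11.2 were expected, at least 3.74-fold lower. *Isl1* had 1 UMI where 13.8 were expected and *Zic1* 1 where 17.5 were.

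The transmitter genes were those of glutamate release. *Slc17a6*, the vesicular glutamate transporter VGLUT2, stood at 728 CPM in the lowest, 1001 in the median and 1211 in the highest library of *Foxb1* neurons, against 128, 252 and 323 CPM (log2 fold change 1.87 ± 0.16 SE, adjusted p = 2.9e-28). The kinds did not overlap, and 104 of 122 *Foxb1* neurons held an *Slc17a6* UMI, against 22.4% of the comparison cells. Of 9 transmitter genes tested, *Slc17a6* was higher and 4 were lower, with a list median of −0.53. Among the lower genes were *Ddc* (aromatic amino acid decarboxylase, 0 UMIs against 17.9 expected), *Slc18a2* (the vesicular monoamine transporter, 3 against 17.6) and *Hdc* (histidine decarboxylase of the nearby tuberomammillary neurons, 1 against 10.3).

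Most neuropeptide genes that passed the filter were lower, some of them without a UMI in *Foxb1* neurons. Of 38 listed, 20 passed the filter, 4 were higher and 14 lower, with a median of −3.65, and of −2.73 with genes without a UMI at the floor. *Cartpt*, the precursor of the CART peptides, stood between 338 and 1432 CPM, against 191 to 556 CPM (log2 fold change 1.53 ± 0.16 SE), higher in 8 of 8 libraries but with overlapping ranges, and was found in 77.0% of *Foxb1* neurons. *Adcyap1*, the precursor of PACAP (1.94 ± 0.27), and *Cck*, that of cholecystokinin (1.54 ± 0.23), were higher in 7 of 8 libraries. *Npy* was higher in the fit (1.54 ± 0.27), but its call depended on 1 library, since without Esr1cKO oil replicate 2, the highest at 724 CPM, the log2 fold change was 0.65 (edgeR adjusted p = 0.135), and DESeq2 did not call it on all 8 (adjusted p = 0.126). After thinning it stood at 0.14 (0.943, edgeR).

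The summed levels of hormones of magnocellular and other neuroendocrine neurons were far lower in *Foxb1* neurons. *Avp* (vasopressin) had 8 UMIs where 1629 were expected from the comparison level, a ratio of 204 (exact Poisson interval 103 to 472, counting error only). *Oxt* (oxytocin) had 7 where 537 were expected, *Tac2* (neurokinin B) 1 where 237 were and *Sst* (somatostatin) 1 where 120 were. *Gal* (−1.68 ± 0.28) and *Penk* (−1.56 ± 0.40) were also lower, though *Penk* did not pass at 3 cells per library (adjusted p = 0.365, edgeR) or after thinning (0.111). Shares of cells with a UMI differed less than these sums. They were 9.02% of *Foxb1* neurons against 12.8% of comparison cells for *Avp* and 7.38% against 6.82% for *Oxt*. For *Gal* they were 11.5% against 8.09% and for *Penk* 9.84% against 6.85%. After thinning they were 2.54% against 10.2% (*Avp*), 2.54% against 4.18% (*Oxt*), 5.08% against 6.84% (*Gal*) and 5.93% against 5.38% (*Penk*). Of 13 genes of peptide processing, 2 were higher and 6 lower. *Pcsk2*, a prohormone convertase, was higher in 8 of 8 libraries (0.94 ± 0.19) but stood at 0.44 after thinning (adjusted p = 0.556, edgeR), while the secretory granule proteins *Resp18* (−1.35 ± 0.16) and *Vgf* (−2.89 ± 0.45) were lower.

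Calcium-binding genes differed within the family. Of 25 tested, 9 were higher and 6 lower, with a median of 0.07 (−0.02 with scaling over all genes tested). The 6 were 3 without any one of WT oil replicate 2, Esr1cKO oil replicates 2 and 4 and Esr1cKO tamoxifen replicate 4. *Calb1* (calbindin D28K) stood between 217 and 1432 CPM against 170 to 305 CPM, higher in 8 of 8 libraries (log2 fold change 1.66 ± 0.17 SE). *Vsnl1* (visinin-like 1, 1.53 ± 0.16) and *Hpca* (hippocalcin, 2.47 ± 0.26), which are neuronal calcium sensors, did not overlap between the kinds. *Calb2* (calretinin) had 4 UMIs where 51.0 were expected.

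Of 36 glutamate and GABA receptor genes tested, 7 were higher and 10 lower (median −0.36). The metabotropic glutamate receptor *Grm2* stood between 51.1 and 193 CPM against 7.17 to 17.0 CPM, without overlap (log2 fold change 3.35 ± 0.43 SE, adjusted p = 1.13e-12). *Grm4* (1.86 ± 0.49) was higher in 7 of 8 libraries and the GABA-B subunit *Gabbr2* (0.90 ± 0.24) in 8. *Grm4* was not called with at least 10 cells per library (1.61, adjusted p = 0.0525, edgeR), with at least 3 *Foxb1* UMIs (1.15, 0.354), at a mitochondrial share under 5% (0.133) or after thinning (2.22, 0.0532), nor *Gabbr2* after thinning (0.93, 0.156). The AMPA receptor subunits *Gria1* (−1.81 ± 0.24) and *Gria4* (−1.37 ± 0.23) and the metabotropic receptor *Grm5* (−1.27 ± 0.23) were lower.

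Of 57 ion channel genes tested, 11 were higher and 7 lower (median −0.04), with 4 lower without any one of WT oil replicates 1 and 2 and Esr1cKO oil replicate 2. Over all genes tested outside the rule 4.31% were higher and 11% lower, so the number lower was near the share of all genes. The sodium channel subunit *Scn1a* (1.44 ± 0.21) was higher without overlap of the kinds, and *Scn4b* (3.61 ± 0.69), an auxiliary subunit known from fast-spiking neurons, in 7 of 8 libraries on 16 UMIs. Potassium channel genes moved both ways. *Kcna1* (2.06 ± 0.34), *Kcna6* (2.53 ± 0.34) and their auxiliary subunit *Kcnab3* (3.61 ± 0.51), the fast delayed rectifier *Kcnc1* (1.05 ± 0.27) and the G protein-gated channels *Kcnj3* (1.64 ± 0.28) and *Kcnj9* (1.47 ± 0.35) were higher. *Kcnd2* (−1.56 ± 0.23), *Kcnb2* (−3.09 ± 0.42) and *Kcnc2* (−2.63 ± 0.48) were lower in 8 of 8 libraries. *Kcnc1* was not called against GABA neurons (0.64, adjusted p = 0.0689, edgeR) or after thinning (0.29, 0.870), where *Kcna1* (1.58, 0.136) and *Scn1a* (1.06, 0.0518) were not called either.

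Of 33 synaptic vesicle genes tested, 9 were higher and 4 lower (median 0.45), against 4.31% higher and 11% lower over all genes. The number lower was thus near the share of all genes. *Vamp1*, a vesicle SNARE, stood between 53.6 and 388 CPM against 18.5 to 48.8 CPM (log2 fold change 2.42 ± 0.31 SE). *Sncb* (beta-synuclein, 1.71 ± 0.19), *Rab3a* (0.94 ± 0.17) and *Napb* (1.05 ± 0.19) did not overlap either, though *Rab3a* was not called after thinning (0.76, adjusted p = 0.0782, edgeR). *Rab3c* (−2.39 ± 0.24), *Cplx1* (−2.42 ± 0.61) and *Cplx2* (−1.92 ± 0.29) were lower, the last 2 being complexins, which clamp vesicle fusion. *Cplx1* rested on 4 UMIs and was not called with at least 3 *Foxb1* UMIs (adjusted p = 0.0621, edgeR).

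**Figure D4:**
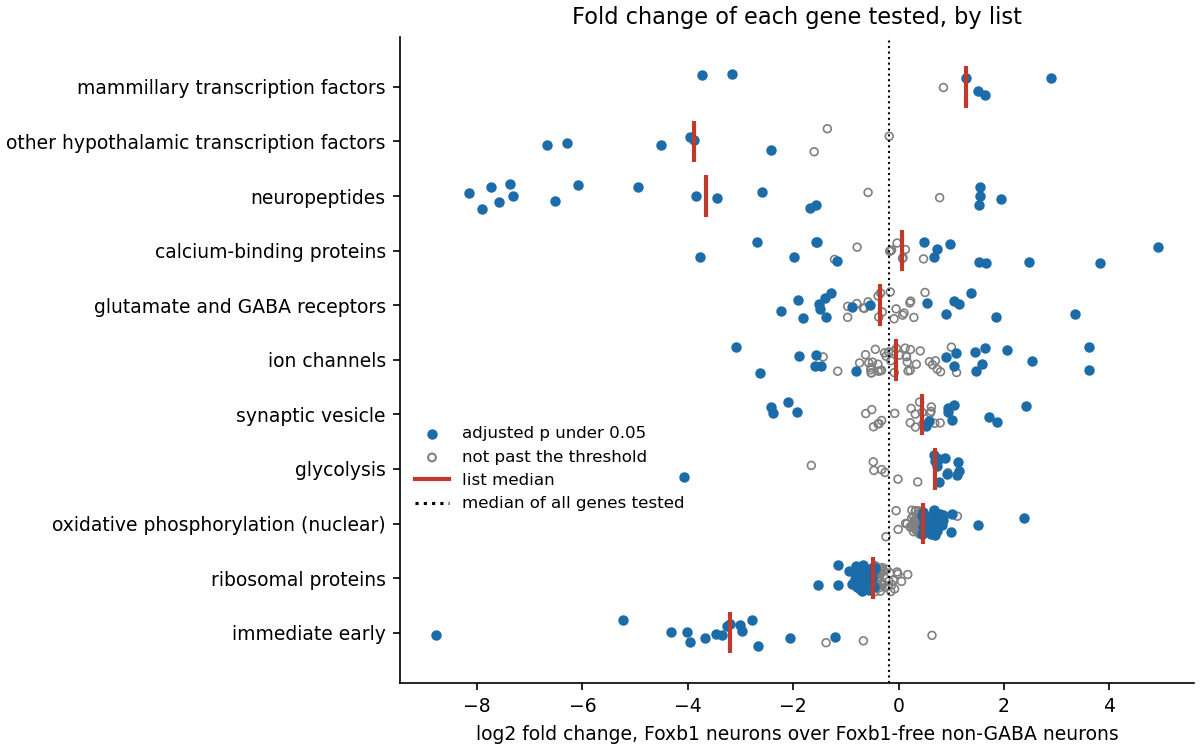
Log2 fold change of each gene tested in 11 lists, *Foxb1* neurons over *Foxb1*-free non-GABA neurons, with filled points for adjusted p under 0.05, red bars for list medians and a dotted line for the median of all 9724 genes (−0.18). Immediate early genes lie left of the line except for 1 gene, nuclear genes of oxidative phosphorylation mostly right of it.

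Many genes of energy metabolism were higher. Of 79 nuclear genes of oxidative phosphorylation tested, 37 were higher and none lower, with a median of 0.47. The number called was 19 without WT oil replicate 1 and depended on the scaling, with 52 higher by library size alone and 23 with scaling over all genes tested, and on depth, with 7 of 76 higher after thinning to 1000 UMIs per cell at a median of 0.44. *Cox5a*, a subunit of cytochrome oxidase, stood between 276 and 563 CPM against 81.8 to 168 CPM (log2 fold change 1.51 ± 0.21 SE). *Atp5b* (0.84 ± 0.16), of ATP synthase, was higher in 8 of 8 libraries. Of 19 glycolytic genes tested, 10 were higher (6 without Esr1cKO oil replicate 2), among them *Aldoa* (0.88 ± 0.15), *Ldhb* (1.14 ± 0.16) and *Eno2* (1.15 ± 0.17). These named genes were also called after thinning. *Tpi1* (adjusted p = 0.0780, edgeR), *Pkm* (0.140), *Gapdh* (0.109), *Pfkp* (0.0883), *Pfkm* (0.376), *Eno1* (0.329) and *Pgk1* (0.272) were not called after thinning. The endothelial and astrocytic glucose transporter *Slc2a1* was lower (2 UMIs against 36.0 expected, not called after thinning, adjusted p = 0.163, edgeR). Cytosolic ribosomal protein genes went the other way, with 38 of 82 lower, none higher and a median of −0.48. That number was 22 without Esr1cKO tamoxifen replicate 1 and 25 without WT oil replicate 2. It was 23 with DESeq2 and 20 by library size alone, and 8 of 80 after thinning, at a median of −0.54.

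Immediate early genes, which are induced within minutes of neuronal activity or of tissue dissociation, were lower. Of 19 tested, 16 were lower and none higher, with a median of −3.21. *Fos* stood at 28.6 CPM in the lowest, 74.2 in the median and 193 in the highest library of *Foxb1* neurons, against 788, 1258 and 1542 CPM (log2 fold change −4.02 ± 0.22 SE, adjusted p = 9.36e-72). *Egr1* (−3.95 ± 0.29), *Fosb* (−5.24 ± 0.39), *Jun* (−2.78 ± 0.20) and *Junb* (−3.67 ± 0.35) were lower in 8 of 8 libraries without overlap. *Atf3* had 0 UMIs where 51.2 were expected, at least 17.1-fold lower. Against cells of both kinds with an *Slc17a6* UMI, 8 of 10 genes tested were lower (median −2.41) and *Fos* stood at −2.87 ± 0.31. Against GABA neurons, 10 of 10 tested were lower (median −1.92).

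RNA of other cell types moved with this comparison. At least 1% of UMIs lay on the marker list of another class in 13.6% of the comparison cells and in 2.46% of *Foxb1* neurons. Among the 8 genes with the lowest folds and at least 50 UMIs expected, *Apod*, *Ly6a* and *Mgp*, known from vascular and perivascular cells and glia, had 0 UMIs in *Foxb1* neurons where 69.7, 59.0 and 53.1 were expected, at least 23.2-, 19.7- and 17.7-fold lower. The 8 endothelial markers summed to 48.3 CPM in *Foxb1* neurons and 1178 CPM in the comparison, with *Cldn5*, *Pltp* and *Slco1a4* at 0 in *Foxb1* neurons. The 10 oligodendrocyte markers summed to 633 and 3619 CPM, led by *Mbp*. The 10 astrocyte markers summed to 1068 and 1359 CPM, led by *Slc1a2*, and no astrocyte marker was at 0. Without the 2 *Foxb1* neurons that held most of these UMIs the sum was 379 CPM. Without cells that had 1% or more of such UMIs, *Fos* stood at −3.98 ± 0.22, *Pvalb* at 4.87 ± 0.33, *Lhx1* at 2.80 ± 0.27 and *Slc17a6* at 1.77 ± 0.15, and 15 of 18 immediate early genes were lower.

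*Esr1*, the gene deleted in the Esr1cKO mice, was scarce in *Foxb1* neurons. It had 17 UMIs in 16 of the 122 cells (13.1%, exact 95% binomial interval 7.69 to 20.4%), against 7.66% of the shallower *Foxb1*-free non-GABA neurons and 10.6% of GABA neurons. After thinning to 1000 UMIs the share was 5.08% in *Foxb1* neurons and 4.60% in the comparison. By library, from 0 to 4 UMIs were found. By group it was found in 5 of 39 WT oil, 4 of 36 WT tamoxifen, 4 of 26 Esr1cKO oil and 3 of 21 Esr1cKO tamoxifen cells. Drop-seq reads the 3′ end of transcripts, so an *Esr1* UMI does not show whether the floxed part was deleted, and these counts check neither the genotype labels nor the deletion. *Nkx2-1*, whose regulatory sequences drive the Cre, was found in 27 of 122 cells (22.1%, 15.1 to 30.5%), with 9 of 39, 6 of 36, 9 of 26 and 3 of 21 cells in the same order of groups.

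Other genes of steroid response were near the limit of detection. *Pgr*, the progesterone receptor, had 11 UMIs in 10 cells, *Esr2* 2, the membrane receptor *Gper1* 1 and the estrogen target *Greb1* 3 UMIs. Of 17 steroid receptor genes tested against *Foxb1*-free neurons, none was higher and 7 were lower (median −0.91). *Nr3c1*, the glucocorticoid receptor (−1.40 ± 0.32, but −0.68 and not called after thinning, adjusted p = 0.525, edgeR), and the orphan receptor *Nr2f2* (−3.37 ± 0.51, 4 UMIs) were among the lower. Of 21 other G protein-coupled receptor genes tested, 2 were higher and 5 lower (3 without WT tamoxifen replicate 1 or Esr1cKO oil replicate 1), with *Cnr1*, the cannabinoid receptor, at 0 UMIs where 13.5 were expected (at least 4.51-fold lower) and the serotonin receptor *Htr2c* at 8 where 27.9 were (not called after thinning, adjusted p = 0.210, edgeR).

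The *Foxb1* neurons were not uniform. *Pvalb* was found in 39 cells and *Calb1* in 74, with both in 16, where 23.7 would be expected if the 2 were independent over these cells. *Pvalb* without *Calb1* was found in 23 cells of 7 libraries, at a median of 5161 UMIs per cell, and *Calb1* without *Pvalb* in 58 cells of 13 libraries, at 2942. Of the 39 cells with *Pvalb*, 35 (89.7%) also held *Cpne9*, against 85 among all 122. Of the 44 cells with *Gpr83*, 37 (84.1%) also held *Calb1*, against 74 among all 122. All 19 cells with *Nts*, the precursor of neurotensin, also held *Cartpt*. In cells of this depth a gene without a UMI is not shown to be absent, and deeper cells hold more of every gene, so these counts are a description.

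Leiden clustering of the 122 cells gave 3 clusters of 68, 33 and 21 cells, which were left unnamed. The cluster of 33 had a median of 4999 UMIs per cell, against 2981 and 2719, and was led by the haemoglobin genes *Hbb-bs*, *Hba-a2* and *Hba-a1*, followed by *Hs6st3*, a heparan sulfate sulfotransferase, and the cadherins *Cdh12* and *Cdh10*. A single cell of Esr1cKO oil replicate 4 held 96 of the 105 *Hbb-bs*, 53 of the 58 *Hba-a2* and 35 of the 39 *Hba-a1* UMIs of this cluster. The cluster of 21 was led by the astrocyte genes *Sparc*, *Agt*, *Ntsr2* and *Slc1a3* and held 335 astrocyte-marker UMIs, of which 147 and 157 lay in 2 cells. No cluster was confined to 1 library, since they drew on 15, 11 and 9 libraries.

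Between the treatment and genotype groups, few genes were called, and single cells held most UMIs of several of them. The 8 libraries with at least 5 *Foxb1* neurons were 2 WT oil, 1 WT tamoxifen, 3 Esr1cKO oil and 2 Esr1cKO tamoxifen, and 1605 genes passed the filter. The lone WT tamoxifen library was assumed to vary like the others, so the 0 calls that rest on it do not show that levels were alike. In WT mice, 0 genes were called between tamoxifen and oil (0.00%, against 32 or 1.99% at an unadjusted p under 0.05 in edgeR, and 0 with DESeq2). The lowest unadjusted p was that of *Nemf*, with no UMI in the WT tamoxifen library and 34 in the WT oil libraries (adjusted p = 0.597, edgeR). Under tamoxifen, 0 genes were called between the genotypes (0.00%, 19 or 1.18% unadjusted, and 0 with DESeq2), and 0 for the interaction of tamoxifen and genotype (0.00%, 73 or 4.55% unadjusted, and 0 with DESeq2). The lowest p of the interaction was that of *Apoe* (adjusted p = 0.179, edgeR). With at least 3 *Foxb1* neurons per library the groups had 3 WT oil, 4 WT tamoxifen, 4 Esr1cKO oil and 3 Esr1cKO tamoxifen libraries, and edgeR called 0 genes in WT mice (22 unadjusted), under tamoxifen (8) and for the interaction (26). With successive fours of library numbers as a block, *Il1rapl1*, an interleukin-1 receptor accessory protein-like synaptic protein, was called by edgeR in WT mice, higher under tamoxifen (2.52 ± 0.60, adjusted p = 0.0477), and *Apoe* (adjusted p = 0.00206) and *Sparc* (0.0181) for the interaction. With the block and at least 3 *Foxb1* neurons per library, no gene was called in WT mice (30 of 543 unadjusted), and *Apoe* and *Nnat* were called for the interaction (both adjusted p = 0.0265, edgeR). That fit takes in WT tamoxifen replicate 3, where 1 cell held 114 of 115 *Apoe* and 1 cell 36 of 37 *Nnat* UMIs.

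In Esr1cKO mice, 10 genes were lower under tamoxifen than under oil and none higher (0.623%, 86 or 5.36% unadjusted), and under oil 17 genes were higher in Esr1cKO than in WT mice and none lower (1.06%, 104 or 6.48% unadjusted). These comparisons share the Esr1cKO oil libraries. The genes called were of astrocytes (*Apoe*, *Sparc*, *Slc1a3*, *Ttyh1*, *Mt1*), of red blood cells (*Hbb-bs*, *Hba-a1*, *Hba-a2*) and others such as *Nnat* (neuronatin) and *Dbi*. *Apoe*, the main apolipoprotein of astrocytes, stood at 4577, 1110 and 53.6 CPM in the Esr1cKO oil libraries, at 57.3 and 48.5 CPM in the Esr1cKO tamoxifen libraries, at 102 and 103 CPM in the WT oil libraries and at 166 CPM in the WT tamoxifen library. In the 2 high libraries, 1 cell held 108 of 122 and 45 of 46 *Apoe* UMIs. *Nnat* had 56 of 57 UMIs of Esr1cKO oil replicate 2 in 1 cell, and *Hbb-bs* had 96 of 96 UMIs of Esr1cKO oil replicate 4 in 1 cell. Another cell with 157 astrocyte-marker UMIs came from WT tamoxifen replicate 3, which had 4 *Foxb1* neurons and was outside the fit of 8 libraries. With libraries of at least 3 *Foxb1* neurons, no gene was called in either comparison by edgeR, and DESeq2 called none on the 8 libraries.

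**Figure D5:**
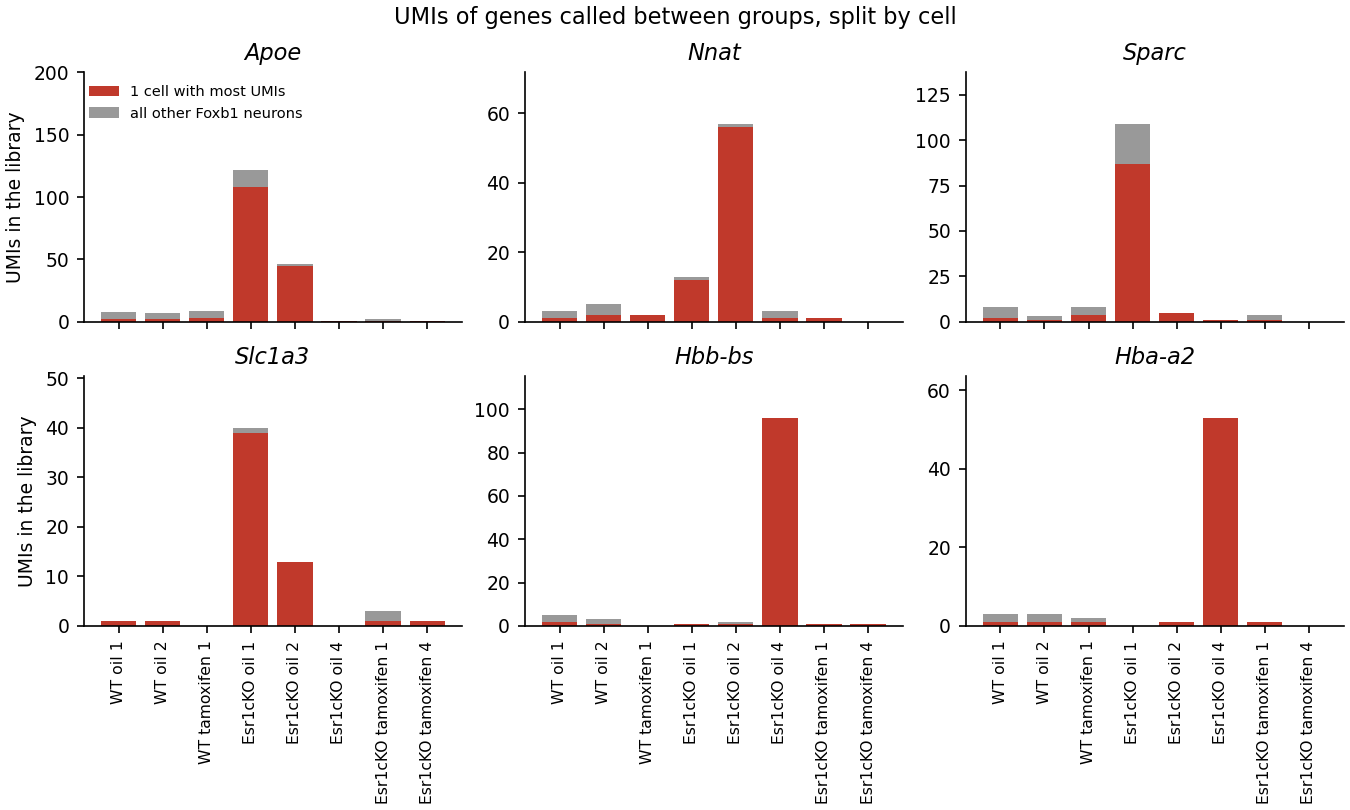
UMIs of 6 genes called between groups, in the *Foxb1* neurons of each of the 8 libraries compared. The red part of a bar is the 1 cell with most UMIs and the grey part all other *Foxb1* neurons of the library. High bars lie in the Esr1cKO oil libraries and are mostly red, such as the 96 of 96 *Hbb-bs* UMIs of Esr1cKO oil replicate 4.

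*Cpne9*, *Rprm*, *Slc17a6*, *Cartpt*, *Pvalb*, *Calb1* and *Lhx1* did not pass the test in any of the 5 group comparisons (edgeR). Under tamoxifen against oil, *Cpne9* had log2 fold changes of 0.61 ± 0.52 SE in WT and 0.78 ± 0.46 in Esr1cKO mice, *Rprm* of 0.35 ± 0.52 and −0.33 ± 0.46, and *Cartpt* of 0.55 ± 0.51 and 0.59 ± 0.44. Under oil, Esr1cKO against WT gave −0.08 ± 0.44 for *Cpne9*, 0.05 ± 0.42 for *Rprm* and −0.30 ± 0.52 for *Pvalb*. Differences of the size of these standard errors were not detectable at this depth.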

How the data were processed

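Drop-seq UMI counts per gene and cell were deposited by the authors as 1 matrix per library, made with STAR 2.6 and Seurat on mm10 as the submitters' processing notes name them (no Seurat version is given, since the notes and the study's methods differ on it). Whether counting used strand is not given in the sources used here. Matrices held barcodes with at least 20 genes (100 in WT oil replicate 3 and Esr1cKO tamoxifen replicate 3). The authors' cell type labels were not used, and cells were chosen by the rule in the opening. Members and gene lists were chosen with earlier results of these data known.

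Raw UMI counts were summed per library and kind of neuron and fitted across all genes with edgeR 4.0.16 (R 4.3.3, quasi-likelihood test, Benjamini-Hochberg adjustment, threshold 0.05), in libraries with at least 5 *Foxb1* neurons. Kinds of neuron were compared with the library as a block, and groups in 1 fit of all 4 groups. TMM scaling factors were taken over genes with at least 5 expected UMIs in a *Foxb1* sum, chosen after a test on simulated data showed bias with all genes. Shares were compared with exact two-sided permutation tests (scipy 1.17.1). Nothing in the labels says more than that each library is 1 mouse, and replicate numbers follow accession order. Genes named were the markers, the 12 highest and 8 lowest past the threshold, the called or most abundant genes of each list, the 3 leading genes of each group comparison and the steroid receptors, and some genes under this rule are not reported here. DESeq2 1.42.0, other scalings, filters, cell rules and left-out libraries were alternatives. Scrublet (scanpy 1.11.5) called 476 of 55675 cells (0.855%) and 0 of 122 *Foxb1* neurons, which were removed only as an alternative. Positions are from GENCODE vM21, and sequence and gene starts from RefSeq, both on GRCm38. Intervals and the floor of 3 UMIs over the group cover counting error only.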

Additional observations from a re-analysis of the deposited data

Results flagged for a closer look

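WT tamoxifen replicate 1 had a share of *Foxb1* neurons of 2.54%, far from the 0.343% to 0.638% of the other 4 WT tamoxifen libraries. Its gap to the nearest library was 0.866 of the range of the group, above Dixon's critical value of 0.710 for 5 samples. Chance flags about 1 in 20 groups, and 3 groups were large enough to be looked at. The cause was not tested.

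Outside the neurons, *Foxb1* UMIs were found in barcodes whose leading markers were those of astrocytes. Of 14651 such barcodes, 760 (5.19%, exact 95% binomial interval 4.83 to 5.56%) held a *Foxb1* UMI and 71 held 2 or more, at a median of 499 UMIs per barcode and a summed level of 92.5 CPM. The share was 0.0746% in oligodendrocyte precursor, 0.147% in mural, 0.198% in endothelial, 0.227% in microglial, 0.322% in oligodendrocyte and 1.11% in ependymal barcodes, classes with medians of 600 UMIs or more. It was 1 of 60 pars tuberalis barcodes (1.67%, 0.0422 to 8.94%) and 0 of 610 fibroblast barcodes, which allows a share of up to 0.603% (exact 95% binomial limit), at medians of 753 and 737 UMIs. Among GABA neurons of the gate it was 0.652%, at a median of 2430 UMIs.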

How the results depend on the processing

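Against *Foxb1*-free non-GABA neurons, the 86 genes named kept their direction and side of the threshold in 2369 of 2431 values under 29 settings. The other values were 61 calls lost, over 21 genes, and 1 reversal, *Npy* against GABA neurons (log2 fold change −0.38, edgeR adjusted p = 0.458). The number of genes lower was 626 with DESeq2, 1658 at 3 cells per library, 711 at a mitochondrial share under 5%, 400 against GABA neurons and 332 among cells with an *Slc17a6* UMI. After thinning, 118 genes were higher and 209 lower. Leaving out 1 library gave 332 to 415 higher and 712 to 1052 lower, the lowest without WT oil replicate 2.

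The 10 genes of Esr1cKO tamoxifen against oil were 0 with DESeq2, with libraries of at least 3 cells (also without the libraries that stood apart, without the library against its sex label, or with the block below) and with 1 or more *Foxb1* UMIs. They were 1 with 3 or more *Foxb1* UMIs, 4 at a mitochondrial share under 5%, 6 without cells with RNA of another class and 1 with only the libraries of the 2 groups. The 17 genes of Esr1cKO against WT under oil were 0 under the first of these settings, and 3, 5, 12 and 7 under the rest, and 28 with no filter on low counts. Leaving out 1 library gave 0 to 21 and 2 to 36, with both highest without Esr1cKO oil replicate 4. The first was 0 without either Esr1cKO tamoxifen replicate 1 or 4 and 2 without WT tamoxifen replicate 1, and the second 2, 3 and 6 without WT oil replicate 1, WT oil replicate 2 and WT tamoxifen replicate 1. The interaction had 2 genes called with no filter, 1 with 3 or more *Foxb1* UMIs, 1 without shared barcodes and 0 to 5 on leaving out 1 library. With 1 or more *Foxb1* UMIs, *Nnat* under oil (−0.84) and the *Apoe* interaction (0.11) reversed, with the cause not tested.

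Replicate numbers follow accession order and pair no samples, so successive fours of library numbers served as the block. With it, 1 gene was called in WT mice and 2 for the interaction (2 also at 3 cells per library), and 13 and 18 in the other pair of comparisons.

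The WT difference in share (−2.04 percentage points) was −0.374 over all kept cells, −2.54 over non-GABA neurons, −1.10 after thinning and −1.78 within the block, and these 4 lost the unadjusted threshold. Leaving out 1 library gave −3.12 to −0.948. The unadjusted p was above 0.05 without any one of WT oil replicates 1 and 2 and WT tamoxifen replicates 2 to 5. The difference of Esr1cKO from WT under tamoxifen (−0.102) reversed to 0.401 and 0.0633 with 1 and 3 or more *Foxb1* UMIs and 0.0462 without the libraries that stood apart, and ranged from −0.449 to 0.305 on leaving out 1 library. Shared barcodes, sex label, scaling over all genes, library size alone, *Slc17a6* cells and RNA of another class were chosen after seeing the data.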
